A study of Mus musculus with 4 samples.

Results

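The proteasome genes of mouse embryonic stem cells were compared between cells with and without RNAi against Chd4. They were taken as every gene with a single symbol on the array that starts with Psma, Psmb, Psmc, Psmd, Psme, Psmf or Psmg and a digit. The array held 49 such genes among 18193, measured by 103 probe sets, and each gene was read at its brightest probe set by mean log2 signal. Of these genes 47 lay above the filter on dim signals, among 12615 genes tested in all. The symbol rule also took Psmc3ip, a partner of meiotic recombinases, and Psme3ip1, a binding partner of Psme3, which are neither subunits nor known assembly factors of the proteasome.

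The cells were of the J1 embryonic stem cell line and of the inducible RNAi line Chd4i-1, so control and knockdown cells carried the same Tet-on construct. The control group (n = 2 arrays) received no doxycycline, and the Chd4 knockdown group (n = 2) received 5 ng/ml doxycycline for 3 days. Both were grown on gelatin with serum and leukaemia inhibitory factor, and RNA was hybridised to single-colour Affymetrix arrays. Within a group the arrays are biological duplicates, per the series text, and all come from 1 RNAi line. Doxycycline, RNAi and loss of Chd4 therefore cannot be told apart. Chd4, the ATPase of the NuRD remodelling complex, was at 48.5%, 56.1% and 65.0% of control at its 3 probe sets (adjusted p = 0.000244, 0.00232 and 0.00638). All 10 embryonic stem cell markers examined lay above the filter, with signals from 2670 to 28361. Of these, Esrrb and Klf4 were lower (log2 -0.29 and -0.25, adjusted p = 0.00445 and 0.00702) and Dppa5a and Utf1 higher (0.19 and 0.31, adjusted p = 0.0112 and 0.00948). The median signal of an array lay between 73.4 and 79.4, and precision is limited by having 2 arrays a group.

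The proteasome degrades proteins that carry ubiquitin chains. Its 20S core is a barrel of alpha rings, which gate the entrance, and beta rings, which hold the proteolytic sites. A 19S particle of ATPases, scaffold subunits and a lid binds, unfolds and de-ubiquitinates substrates, and the combined particle is called the 26S proteasome. Cells exposed to interferon exchange the catalytic beta subunits for those of the immunoproteasome, which cuts peptides for presentation on class I molecules. Other alternative subunits are known from testis and thymus. Embryonic stem cells are known for high proteasome activity.

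Most subunit transcripts of the proteasome differed little between the groups, and Psma8, the alternative alpha subunit of the testis, was the only tested member that passed as higher. Of the 47 genes tested, 1 was higher and 3 were lower in knockdown cells at an adjusted p under 0.05 (limma). The lower genes were the ATPase gene Psmc4, the lid gene Psmd7 and Psmc3ip. This is 8.51% of the members, where 20.5% of all genes tested passed (11.7% higher and 8.81% lower). The count of 4 became 2 without control replicate 1, 1 without control replicate 2 and 7 without knockdown replicate 1, where 1870, 1785 and 2013 of the 12615 genes passed. Without the intensity trend of the variance it was 1, with 3.34% of all genes. The lower share among the members did not hold in every setting. With probe sets averaged it was 10.6% of the members and 10.5% of all genes, and without knockdown replicate 1 the 7 members were 14.9% of the members, close to the share that the 2013 genes make up of all genes. At an unadjusted p under 0.05 there were 12 members, against 33.8% of all genes. The median log2 difference (knockdown minus control) was 0.022 over the members and 0.014 over all genes tested, and the median size of the difference without its sign was 0.063 and 0.21.

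The median standard error of the log2 difference was 0.058 over the members, against 0.13 over all genes tested. All signals of the members were at least 182, where the filter lay at 42.4. The fit draws these errors towards a trend with signal (prior degrees of freedom 9.12, residual 2). The members were not compared with genes of like signal. A 95% interval wholly inside a 1.2-fold change in either direction was found for 32 members (68.1%) and for 14.6% of all genes tested. That limit was chosen after the values were seen. Without overlap between the groups were 18 members that were higher and 12 that were lower. Over all genes tested these shares were 32.5% and 28.1%, or 60.6% in both directions together.

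**Figure D1:**
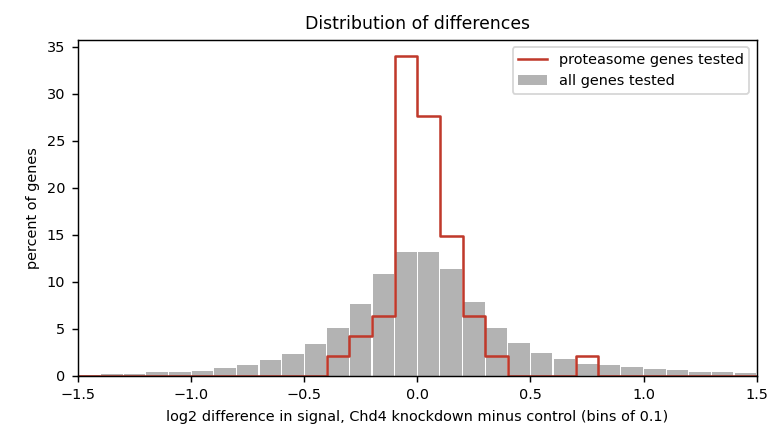
Share of genes, in percent, by log2 difference in signal (Chd4 knockdown minus control, bins of 0.1), for all 12615 genes tested (grey bars) and the 47 proteasome genes tested (red line). The bin from -0.1 to 0 held 34.0% of the proteasome genes and 13.2% of all genes.

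**Figure D2:**
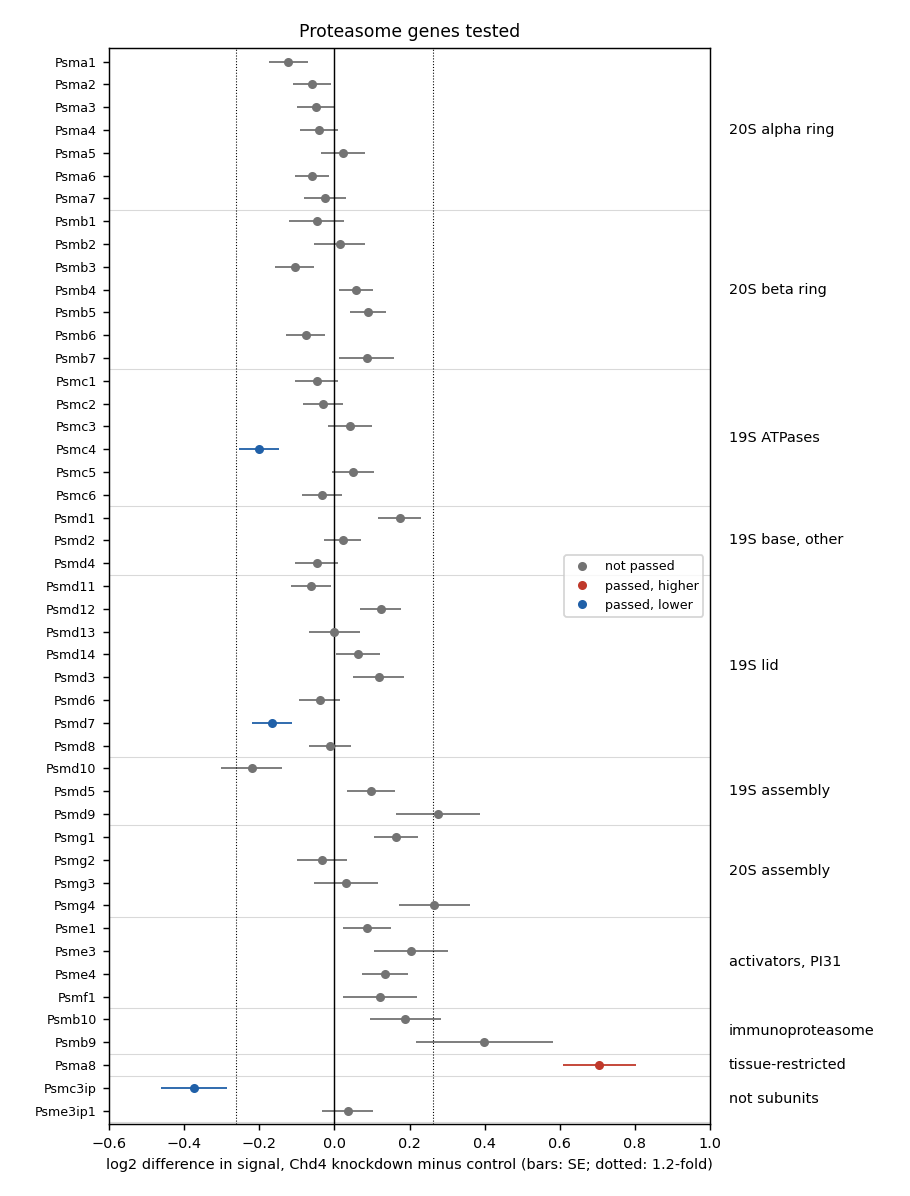
Log2 difference in signal (Chd4 knockdown minus control) of each of the 47 tested proteasome genes, with its standard error, by role. Each gene is shown at its brightest probe set. Psma8 stands furthest to the right at 0.71, Psmc3ip furthest to the left at -0.37, and the 14 constitutive core subunits all lie between the dotted lines that mark 1.2-fold.

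The alpha ring subunits of the 20S core, Psma1 to Psma7, had log2 differences between -0.12 and 0.023, and 0 of 7 passed in limma, with 1 at an unadjusted p under 0.05. Their signals ran from 6280 to 12501 over the 4 arrays. Psma1 was the lowest of them, with signals of 8443 and 8907 in the controls against 8068 and 7857 in the knockdown arrays. Its groups did not overlap, but the difference did not pass (log2 -0.12 ± 0.052 SE, adjusted p = 0.121). Psma7, the constitutive counterpart of Psma8, had signals of 6725 and 6346 in the controls against 6280 and 6570 in the knockdown arrays. These groups overlapped (log2 -0.024 ± 0.056, adjusted p = 0.806). Psma6 was read at a probe set ending in _x_at. When probe sets ending in _s_at or _x_at were left out, Psma6 passed as lower in limma (log2 -0.21, adjusted p = 0.0171).

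The constitutive beta subunits Psmb1 to Psmb7 lay between -0.11 and 0.089, and here too 0 of 7 passed in limma, with 0 at an unadjusted p under 0.05. The catalytic subunits are Psmb5, Psmb6 and Psmb7, which cut after hydrophobic, acidic and basic residues. Psmb5 had signals of 8398 and 8268 in the controls against 8914 and 8813 in the knockdown arrays (1.06-fold higher, adjusted p = 0.230). Psmb6 had 7680 and 7621 in the controls against 7058 and 7454 in the knockdown arrays (log2 -0.077 ± 0.053 SE, adjusted p = 0.345). Psmb7 had 5797 and 5375 against 6387 and 5497, with overlapping groups. The groups of Psmb5 and Psmb6 did not overlap, in opposite directions, but neither difference passed. Of all genes tested, 60.6% had groups without overlap. At their brightest probe sets, the 95% interval of all 14 constitutive core subunits lay inside 1.2-fold in either direction. This did not hold at every further probe set. The interval reached 1.26-fold lower at a bright second probe set of Psma6 and 1.22-fold lower at that of Psmb4.

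The 19S particle gave the constitutive subunits that passed. Psmc4 encodes an ATPase of the ring that unfolds substrates. The arrays read 10871 and 10720 in the controls against 9763 and 9022 in the knockdown arrays, so that both knockdown arrays were lower. The fall was 1.15-fold (log2 -0.20 ± 0.053 SE, adjusted p = 0.0207). Its further probe set had signals of 5180 and 5459 in the controls against 4986 and 4823 in the knockdown arrays. These did not overlap either, but the difference did not pass (log2 -0.12, adjusted p = 0.222 among 27022 probe sets). The call ended without control replicate 1 (adjusted p = 0.0778), control replicate 2 (0.0530) or knockdown replicate 2 (0.112), and with probe sets averaged (-0.16, adjusted p = 0.0777). At their brightest probe sets the other 5 ATPase genes, Psmc1, Psmc2, Psmc3, Psmc5 and Psmc6, lay between -0.048 and 0.049 and did not pass. Both further probe sets of Psmc6 were lower without overlap, just outside the threshold (log2 -0.22 and -0.35, adjusted p = 0.0504 and 0.0625 among 27022 probe sets). With probe sets averaged Psmc2 passed as lower (-0.32, adjusted p = 0.0453). There a dim probe set with signals of 53.6, 80.3, 40.5 and 32.5 enters the mean.

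Psmd7 encodes the lid subunit that pairs with the de-ubiquitinase Psmd14. It had signals of 7446 and 7540 in the controls against 6862 and 6495 in the knockdown arrays. The fall of 1.12-fold was just past the threshold (log2 -0.17 ± 0.053 SE, adjusted p = 0.0478). The call ended in 8 of 13 alternative settings, among them the removal of control replicate 1 (adjusted p = 0.119), control replicate 2 (0.164) or knockdown replicate 2 (0.196). Centring on the median ended it at an adjusted p of 0.0604, the replicate number as a block at 0.0760, and averaging of its probe sets at -0.082 and 0.801. Psmd14 itself had signals of 8577 and 9491 in the controls against 9614 and 9228 in the knockdown arrays, which overlapped. The other lid genes, Psmd3, Psmd6, Psmd8, Psmd11, Psmd12 and Psmd13, lay between -0.063 and 0.12 and did not pass.

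Among the base genes other than the ATPases, the scaffold gene Psmd1 had the largest difference. The arrays read 9442 and 9593 in the controls against 10201 and 11294 in the knockdown arrays, without overlap. It lay just outside the threshold (log2 0.17 ± 0.057 SE, adjusted p = 0.0514), and it passed in 4 alternative settings, at adjusted p = 0.0124 without knockdown replicate 1. The second scaffold gene Psmd2 and the ubiquitin receptor gene Psmd4 had differences of 0.022 and -0.047, with adjusted p = 0.796 and 0.609. Over the 31 constitutive subunits of the 26S particle, 2 were lower and 0 higher in limma (6.45%). Of all genes tested 8.81% were lower and 11.7% higher. At an unadjusted p under 0.05 there were 5 of the 31, against 33.8% of all genes, and their median log2 difference was -0.030.

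Assembly factors did not pass either. Of the 19S chaperone genes, Psmd10, which encodes gankyrin, had signals of 1262 and 1288 in the controls against 1098 and 1090 in the knockdown arrays (log2 -0.22 ± 0.082 SE, adjusted p = 0.0804). Psmd9 had 537 and 519 in the controls against 616 and 664 in the knockdown arrays (0.28 ± 0.11, adjusted p = 0.104). Both pairs of groups were apart, in opposite directions, but groups were apart for 60.6% of all genes tested and neither difference passed. The third, Psmd5, had a difference of 0.097 (adjusted p = 0.327). Of the chaperones of the core, Psmg1, with signals of 5494 and 5327 in the controls against 5838 and 6289 in the knockdown arrays, had an adjusted p of 0.0694. Psmg4 had 1076 and 1068 against 1191 and 1395 (adjusted p = 0.0705). The partners of these chaperones, Psmg2 and Psmg3, had overlapping groups, with differences of -0.034 and 0.031. Psmg1 and Psmg4 passed without knockdown replicate 1 (adjusted p = 0.0418 and 0.0245).

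The next genes are the activators that can replace the 19S particle, and Psmf1, which encodes the core-binding regulator PI31. At the brightest probe sets 4 of 4 had higher signals in both knockdown arrays, as did 32.5% of all genes tested. In limma 0 of 4 passed, with 1 at an unadjusted p under 0.05. Further probe sets went both ways. A further Psme4 probe set had 269 and 289 in the controls against 242 and 181 in the knockdown arrays. A further Psmf1 probe set had 335 and 336 against 329 and 291. Another of Psme4 was higher without overlap (5247 and 5445 against 5905 and 6091), and so were both further probe sets of Psme3. Psme4, which encodes the nuclear activator PA200, had signals of 8435 and 8991 in the controls against 10091 and 9066 in the knockdown arrays (log2 0.14 ± 0.061 SE, adjusted p = 0.146). Its 95% interval ended at 1.21-fold, and over the alternative settings its log2 difference ran from -0.079 to 0.21. Psme3, of the nuclear PA28 form, had 926 and 1049 against 1196 and 1079 (1.15-fold, adjusted p = 0.171). With its probe sets averaged Psme3 passed at a log2 difference of 1.33 (adjusted p = 0.00726), where a dim probe set with signals of 3.21, 4.15, 32.2 and 48.9 enters the mean. Psme1, of the interferon-inducible PA28 form, differed by 1.06-fold and Psmf1 by 1.09-fold (adjusted p = 0.374 and 0.432). A single probe set with several symbols of this family was left out.

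Psma8 encodes an alternative alpha subunit that takes the place of Psma7 in the proteasome of meiotic male germ cells. Its only probe set had signals of 588 and 598 in the controls against 967 and 968 in the knockdown arrays. The knockdown arrays were both higher, with almost no spread inside either group. The rise was 1.63-fold (log2 0.71 ± 0.097 SE, adjusted p = 0.000532), and it passed in all 13 alternative settings, with differences between 0.69 and 0.72 and adjusted p values between 0.000368 and 0.0436. Psmb11, the catalytic subunit of thymic epithelium, lay below the filter and was not tested, with signals of 36.1 and 30.7 in the controls against 35.0 and 5.28 in the knockdown arrays.

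Psmc3ip, taken by the symbol rule only, works with the meiotic recombinase Dmc1. It had signals of 1204 and 1282 in the controls against 940 and 978 in the knockdown arrays. The fall of 1.30-fold passed (log2 -0.37 ± 0.087 SE, adjusted p = 0.0112), and its further probe set was lower as well, from 1034 and 976 to 704 and 741 (adjusted p = 0.00803 among 27022 probe sets). Without control replicate 2 it did not pass (adjusted p = 0.0791). So Psma8 and Psmc3ip, both known from meiosis, had differences of opposite sign. Psme3ip1 had a difference of 0.036 with overlapping groups.

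**Figure D3:**
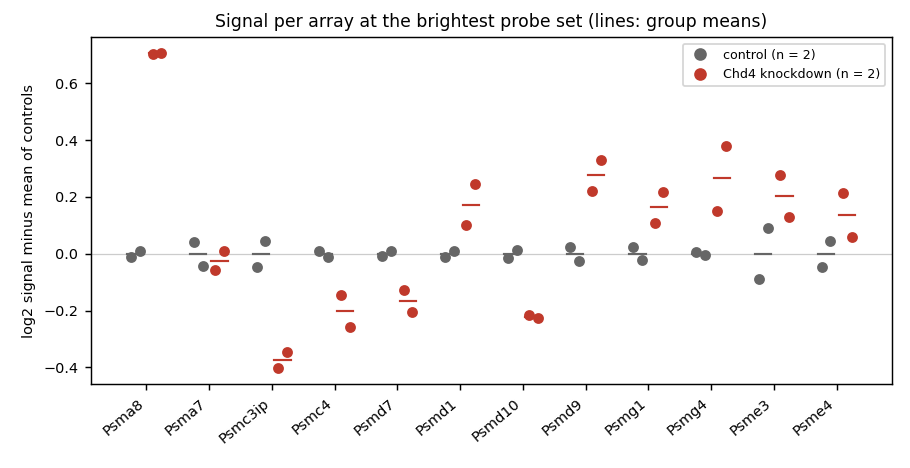
Log2 signal of each array minus the mean of the control arrays, for 12 proteasome genes at their brightest probe sets (grey, 2 control arrays; red, 2 knockdown arrays; lines, group means). Both knockdown arrays lie near 0.7 for Psma8, whereas the arrays of the 2 groups intermingle for its counterpart Psma7.

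The immunoproteasome genes were compared with genes of class I antigen presentation, since Psmb8 and Psmb9 stand next to the peptide transporter genes Tap1 and Tap2 in the order Psmb9, Tap1, Psmb8, Tap2. Psmb9 and Tap1 point away from each other, and the stretch between their starts serves as the upstream region of both. That stretch, the 250 bases upstream of Psmb8, of its constitutive counterpart Psmb5 and of the class I light chain gene B2m are shown, because the values of these genes are set side by side in the next paragraphs. They are RefSeq sequences of build GRCm38.p6, given 5′ to 3′, with capitals for matches to the motifs named after them. The first lies at chr17:34187331-34187555 (plus strand, the strand of Tap1), the others at chr17:34197945-34198194 (plus), chr14:54617996-54618245 (minus) and chr2:122147437-122147686 (plus).
Psmb9-Tap1: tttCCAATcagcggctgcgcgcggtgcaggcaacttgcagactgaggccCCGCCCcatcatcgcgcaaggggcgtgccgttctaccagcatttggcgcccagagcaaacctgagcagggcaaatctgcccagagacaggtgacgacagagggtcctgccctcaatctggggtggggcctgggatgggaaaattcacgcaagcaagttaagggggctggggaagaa
Psmb8: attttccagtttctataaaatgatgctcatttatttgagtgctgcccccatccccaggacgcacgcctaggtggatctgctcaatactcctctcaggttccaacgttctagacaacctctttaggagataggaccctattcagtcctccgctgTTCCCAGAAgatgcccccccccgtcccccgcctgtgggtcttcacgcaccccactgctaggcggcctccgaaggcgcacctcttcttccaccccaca
Psmb5: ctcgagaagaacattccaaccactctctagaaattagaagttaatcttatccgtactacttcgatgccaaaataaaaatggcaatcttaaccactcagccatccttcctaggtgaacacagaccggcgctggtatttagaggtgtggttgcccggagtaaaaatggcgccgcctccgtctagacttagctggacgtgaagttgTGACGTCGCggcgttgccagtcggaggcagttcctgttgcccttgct
B2m: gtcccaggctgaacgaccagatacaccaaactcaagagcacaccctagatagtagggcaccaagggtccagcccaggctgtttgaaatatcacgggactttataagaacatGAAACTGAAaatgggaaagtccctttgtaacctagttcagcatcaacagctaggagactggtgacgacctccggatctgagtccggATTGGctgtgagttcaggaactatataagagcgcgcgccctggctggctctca

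The motifs searched on both strands were CCAAT (the NF-Y box), GGGCGG (the GC box of Sp1), TGACNNNGC (the core of the antioxidant response element), GAAANNGAA (the interferon-stimulated response core) and TTCNNNGAA (the gamma-activated core). No 2 matches overlapped in these sequences. The shared Psmb9 and Tap1 stretch held an NF-Y box 222 bases before the start of Tap1 and a GC box, on the other strand, 176 bases before it. Psmb8 had TTCCCAGAA 97 bases before its start, Psmb5 had TGACGTCGC 47 bases before, and B2m had GAAACTGAA 139 bases before. B2m also had an NF-Y box on the other strand, 53 bases before its start. Promoter sequences were matched for 41 of the 49 members, in 44 windows. Any member windows on chr18 were left out of these, but the windows of all genes were not limited in this way. GGGCGG was found in 50.0% of these windows and in 32.7% of all 32851 windows of 250 bases, and CCAAT in 36.4% and 33.8%. TGACNNNGC was found in 11.4% and 10.2%, GAAANNGAA in 6.8% and 7.1% and TTCNNNGAA in 4.5% and 7.0%. These matches describe the letters only.

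Of the immunoproteasome subunits 2 were tested, and 0 passed in limma, with 0 at an unadjusted p under 0.05. Psmb9, the counterpart of Psmb6, had signals of 182 and 188 in the controls against 258 and 231 in the knockdown arrays. The knockdown arrays were both higher, by 1.32-fold (log2 0.40 ± 0.18 SE, adjusted p = 0.149), and the 95% interval reached 1.74-fold. Psmb10, the counterpart of Psmb7, had 1193 and 1095 in the controls against 1392 and 1219 in the knockdown arrays (1.14-fold, adjusted p = 0.185, interval up to 1.32-fold). Psmb8, the counterpart of Psmb5, lay below the filter and was not tested. Its signals of 32.9 and 18.9 in the controls against 51.9 and 32.7 in the knockdown arrays overlapped.

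Genes of the class I pathway from a list of 15 rose in part. Of 13 with a probe set, all tested, 6 rose and 0 fell (46.2%, where 11.7% of all genes tested rose and 8.81% fell), with a median log2 difference of 0.23. B2m, the light chain, rose 2.15-fold, from signals of 964 and 1144 to 2192 and 2319 (adjusted p = 2.01e-05). The heavy chain genes H2-K1 and H2-D1 rose 1.93-fold and 2.33-fold (adjusted p = 8.8e-06 and 1.82e-05), although probe sets of these near-identical genes can cross-hybridise, and H2-D1 had a log2 difference of -0.11 with its probe sets averaged. Nlrc5, the transactivator of class I genes, had signals of 55.0 and 43.7 in the controls against 235 and 238 in the knockdown arrays (adjusted p = 0.000242). Its rise was at least 3.29-fold when values under 71.8, the median over probe sets, were set to it. The peptide-loading gene Tapbp rose 1.53-fold and Irf1, an interferon-induced regulator, 1.47-fold (adjusted p = 0.00409 and 0.00436). With its probe sets averaged Tapbp did not pass (log2 0.44, adjusted p = 0.247). Of the same list, Irf9 and Stat2 did not pass (log2 0.062 and 0.13, adjusted p = 0.853 and 0.675). Nor did Erap1, Calr and Pdia3 (-0.26, 0.033 and 0.14, adjusted p = 0.726, 0.719 and 0.0906).

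The transporter genes beside the immunoproteasome subunits did not pass. Tap1, head to head with Psmb9, had signals of 76.6 and 105 in the controls against 91.7 and 77.9 in the knockdown arrays (log2 -0.086 ± 0.33 SE, adjusted p = 0.886). Tap2 had 73.0 and 125 against 122 and 103 (0.23 ± 0.32, adjusted p = 0.674). Both lay close to the median of the arrays and their groups overlapped. Whether the class I genes differed from the immunoproteasome subunits in their response was not tested. In leukocytes, which express the immunoproteasome, 10 markers were examined and 9 had a probe set. Of these, 2 lay above the filter, and the signals of all 9 summed to 970.1 and 1032 in the controls against 1283 and 1065 in the knockdown arrays. The pan-leukocyte gene Ptprc had signals of 2.39, 14.7, 19.9 and 7.61, and Laptm5 rose 1.42-fold (adjusted p = 0.00632). Without Laptm5 the other 8 summed to 421.6 and 452.0 against 448.3 and 294.9, with overlapping groups. Of 10 fibroblast markers 5 were tested, and Thy1 and Fbln2 rose. Col1a2, Pdgfra and Pdgfrb did not pass, and the other 5, the collagen genes Col1a1 and Col3a1 among them, lay below the filter. The fibroblast markers summed to 565.1 and 656.3 in the controls against 1079 and 1014 in the knockdown arrays, and without Thy1 and Fbln2 the other 8 summed to 329.2 and 421.9 against 371.5 and 344.5, which overlapped. The part of these markers in the results was not tested. In bulk RNA, more cells of a type and more RNA per cell cannot be told apart. The 10 primitive endoderm markers summed to 764.2 and 774.5 in the controls against 800.6 and 726.1 in the knockdown arrays, which overlapped, and 4 of them lay below the filter. Of the 6 tested, Lama1 fell 1.46-fold (limma, adjusted p = 0.0279) and the other 5 did not pass. Pdgfra and Sox7 passed the filter only through the knockdown arrays, where they were higher.

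**Figure D4:**
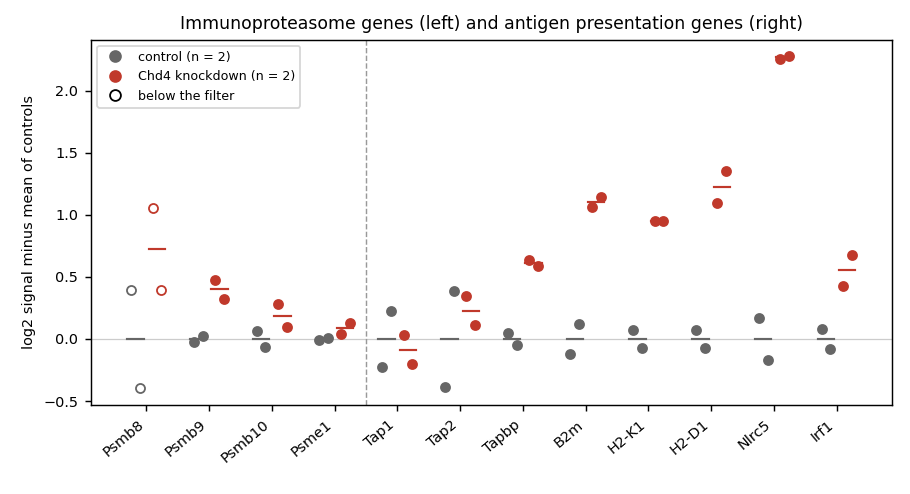
Log2 signal of each array minus the mean of the control arrays, for immunoproteasome genes and Psme1 (left of the dashed line) and genes of class I presentation (right); grey, 2 control arrays; red, 2 knockdown arrays; open circles, below the filter. B2m, H2-K1, H2-D1 and Nlrc5 lie about 1 or more above the controls in both knockdown arrays, while Psmb9 reaches 0.40 on average.

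Partners of the proteasome with other symbols were examined as a further list of 29 genes, of which 21 had a probe set and all of these were tested. Of these, 2 rose and 3 fell (23.8%), a share near the 20.5% of all genes tested, with a median log2 difference of 0.016. The shuttle factor genes Ubqln1 and Ubqln2, whose proteins carry ubiquitinated substrates, moved in opposite directions. Ubqln1 rose by 0.27 on the log2 scale, from signals of 5721 and 5846 to 7101 and 6821 (adjusted p = 0.00512), but another of its probe sets, free of cross-hybridising probes by name, gave a log2 difference of -0.0035. Ubqln2 fell 1.25-fold, from 3575 and 3894 to 2977 and 2975 (adjusted p = 0.00512), and did not pass with its probe sets averaged (adjusted p = 0.328). Ecpas, which encodes a scaffold of the 26S particle, fell 1.53-fold from 610 and 706 to 390 and 471 (adjusted p = 0.00807, and 0.0607 without control replicate 2). Nploc4, which encodes a cofactor of the unfoldase Vcp, rose 1.31-fold (adjusted p = 0.0290, and 0.140 and 0.142 without control replicate 1 or knockdown replicate 1).

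Of the genes of transcription factors known to act on proteasome genes, Nfe2l2 passed and Nfe2l1 did not. Nfe2l2, the regulator of the oxidative stress response, fell 1.27-fold from 2689 and 2885 to 2136 and 2269 (adjusted p = 0.00631). Nfe2l1, which activates subunit genes when the proteasome is inhibited, had signals of 1105 and 1128 in the controls against 1325 and 1234 in the knockdown arrays, a difference that did not pass (log2 0.20 ± 0.084 SE, adjusted p = 0.127). The core maturation factor gene Pomp and the small lid subunit gene Sem1 had differences of 0.043 and 0.0028, and did not pass (adjusted p = 0.626 and 0.978).

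The further probe sets of the members gave a second reading of these transcripts. There were 54 of them in 27 genes, of which 44 lay above the filter. Among all 27022 probe sets tested, 6.77% passed as lower and 7.46% as higher (14.2% together), and of the 44 further probe sets 4 passed as lower and 0 as higher. Beside that of Psmc3ip, these belonged to Psma6, Psmb4 and Psmd6. A second probe set of Psma6 had signals of 9646 and 10210 in the controls against 8372 and 8805 in the knockdown arrays (log2 -0.21, adjusted p = 0.0257), whereas the brightest differed by -0.060. For Psmb4 the second gave 10340 and 10853 against 9508 and 9219 (-0.18, adjusted p = 0.0404), opposite in sign to the brightest at 0.057. For Psmd6 the second gave 623 and 607 against 477 and 408 (-0.48, adjusted p = 0.0260), and the brightest -0.039. The readings of 1 gene thus differed by more than the spread between arrays in these cases, and what each probe set covers was not analysed here.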

How the data were processed

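Expression was measured on 4 arrays, 2 control and 2 Chd4 knockdown, grouped by sample title. The authors deposited 1 linear intensity for each probe set and array, made with MAS5 according to the submitters' processing notes. For MAS5, version and scaling target are not given in the sources used here, and detection calls were not used. Trimmed means over 45037 non-control probe sets lay between 496.5 and 497.2, so arrays share a scale. Genes were named with the platform annotation, which gave 34945 probe sets 1 symbol, 932 several and 9160 none. Genes in the top 60% of probe sets by mean log2 signal were tested two-sided with limma 3.58.1 (R 4.3.3; lmFit, eBayes with intensity trend, residual degrees of freedom 2, prior 9.12), adjusted by Benjamini-Hochberg over 12615 genes. No pseudocount was used. The fit was also run on data simulated from its own means and variances, which does not test the calls made here. Errors are standard errors of the fit, and 95% intervals use 11.1 degrees of freedom. Fold changes are ratios of the groups' geometric mean signals. The signal of a probe set also depends on its sequence, so levels of different genes were not compared. The members and lists were chosen with earlier results of these data known. Named were members that passed, the immunoproteasome and tissue-restricted subunits and the extremes of difference, other members that stood near the threshold, and of the partner and class I lists the genes that passed, plus Nfe2l1. The other named genes, among them Psma1, Psma7, Psmb5, Psmb6, Psmb7, Psmd14, Tap1, Tap2, Pomp and Sem1, were chosen after their values were seen. Motif matches were counted in RefSeq promoter windows.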

Additional observations from a re-analysis of the deposited data

How the results depend on the processing

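Of 47 tested members, 35 passed in none of the 14 settings, and Psma8 passed in all of them. The count of members that passed was 4, and 1 without the intensity trend, where 421 of all genes passed and 0 of the partner list. It ran from 1 to 7 when an array was left out, 1 without control replicate 2 and 7 without knockdown replicate 1. With probe sets averaged 5 members and 1326 of all genes passed (10.6% and 10.5%). The other alternatives (quantile normalization, centring on the median, a pseudocount of 16, the top 40% of probe sets, no filter, and no probe sets ending in _s_at or _x_at) gave 3 to 5 members. Named genes reversed in 2 cases, Ubqln1 at -0.0035 without such probe sets and H2-D1 at -0.11 with probe sets averaged. The cause was not tested. Without the intensity trend Psmc3ip, Psmc4, Psmd7, Tapbp, Irf1 and the 5 partner genes no longer passed. Differences that had not passed changed sign in 33 cases among the named genes. The replicate numbers did not pair the arrays by their deviations (r = 0.018), and with a replicate block 2260 genes and 3 members passed, without Psmd7. Dim probe sets are noisy in MAS5, which limits Psmb8, Psmb11, Tap1 and Tap2.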
